A study of Mus musculus with 9 samples.

Results

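Chemokine ligands are the genes described here: 36 genes of the 19938 measured whose symbol is that of a CC, CXC, CX3C or XC chemokine ligand or of the platelet ligands Ppbp and Pf4. Members were taken by symbol, from array rows that pair with a single gene, and a gene with several rows is represented by its brightest row on average. Apart from that choice of row, the measured values had no part in the rule. Chemokines are small secreted or membrane-held proteins that guide cells along gradients through G protein-coupled receptors, and atypical receptors bind and remove them without that signalling. In bone marrow, Cxcl12 from reticular stromal cells retains blood stem cells and B cell progenitors that carry Cxcr4. Inflammatory ligands, in contrast, are mostly switched on in leucocytes and stroma by NF-kappaB or interferon signals.

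The study profiled stromal cells of mouse bone marrow that lacked CD45 and lineage antigens and carried CD54 and BP1. YFP+ cells (3 arrays) and YFP-negative cells of the same gate (1 array) came from C57Bl/6J mice with the genotype IL7-Cre Transgenic/Rosa-eYFP hetero, in which Cre acts under Il7 control and leaves a heritable YFP mark. Cells of the gate from wild-type C57Bl/6J mice (3 arrays) carry neither allele, and total bone marrow cells of wild type C57Bl/6J mice (2 arrays) were the control. No treatment is named for any group. The sorted cells came from mice 6 to 12 weeks old, and the total marrow mice are labelled young adults. Between 1800 and 10000 cells were sorted for a sample, 2300 of them for the YFP-negative one, and 10 ng of RNA was amplified from total marrow. Because the YFP mark records Cre activity, it reports Il7 promoter activity in the cell or its ancestors, and the labels do not say whether animals were pooled or whether replicates are separate animals.

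Values are log2 array signals. In the 8 arrays other than the YFP-negative one, medians over the rows tested lay at 4.51 to 4.60, while the YFP-negative array had a median of 3.46. For this reason the YFP-negative comparisons use values of the 9 arrays normalized by cyclic loess, and the other comparisons use the deposited values. All 6 reticular stroma markers rose in each sorted group against total marrow. Of the leucocyte markers, 10 of 10 monocyte and macrophage genes and 6 of 6 T and NK genes were lower in both YFP+ and wild-type cells. The summed neutrophil markers ranged from 7.64 to 12.05 across the YFP+ arrays, from 7.31 to 10.29 across the wild-type arrays and from 14.97 to 15 in total marrow. In bulk samples, fewer cells of a type and less RNA per cell cannot be told apart. Levels of different genes are not set against each other, since each has its own probes.

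Against total marrow, Cxcl12, Cxcl14, Ccl19, Cxcl9, Cxcl10, Cx3cl1 and Cxcl16 rose in all 3 sorted groups, and Ccl3, Ccl4, Ccl5, Ccl6, Cxcl2, Xcl1, Pf4 and Ppbp fell in all 3. In YFP+ cells 9 of 36 ligands rose and 8 fell (limma, adjusted p under 0.05), where 11% of all rows rose and 18.5% fell, 29.5% in all. In wild-type gate cells 10 rose and 8 fell, against 10.4% and 13.9% of all rows, 24.3% in all. In the YFP-negative array 10 rose and 8 fell, against 13% and 13.2% of all rows, 26.2% in all. The median change over the 36 ligands was 0.18, 0.01 and 0.14 in these comparisons, against 0.09, 0 and 0 over all rows. The 3 comparisons share the same 2 total marrow arrays, so they are not independent of one another. With either total marrow replicate left out, fewer ligands rose in wild-type cells, and the share of all rows that rose was also smaller.

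**Figure D1:**
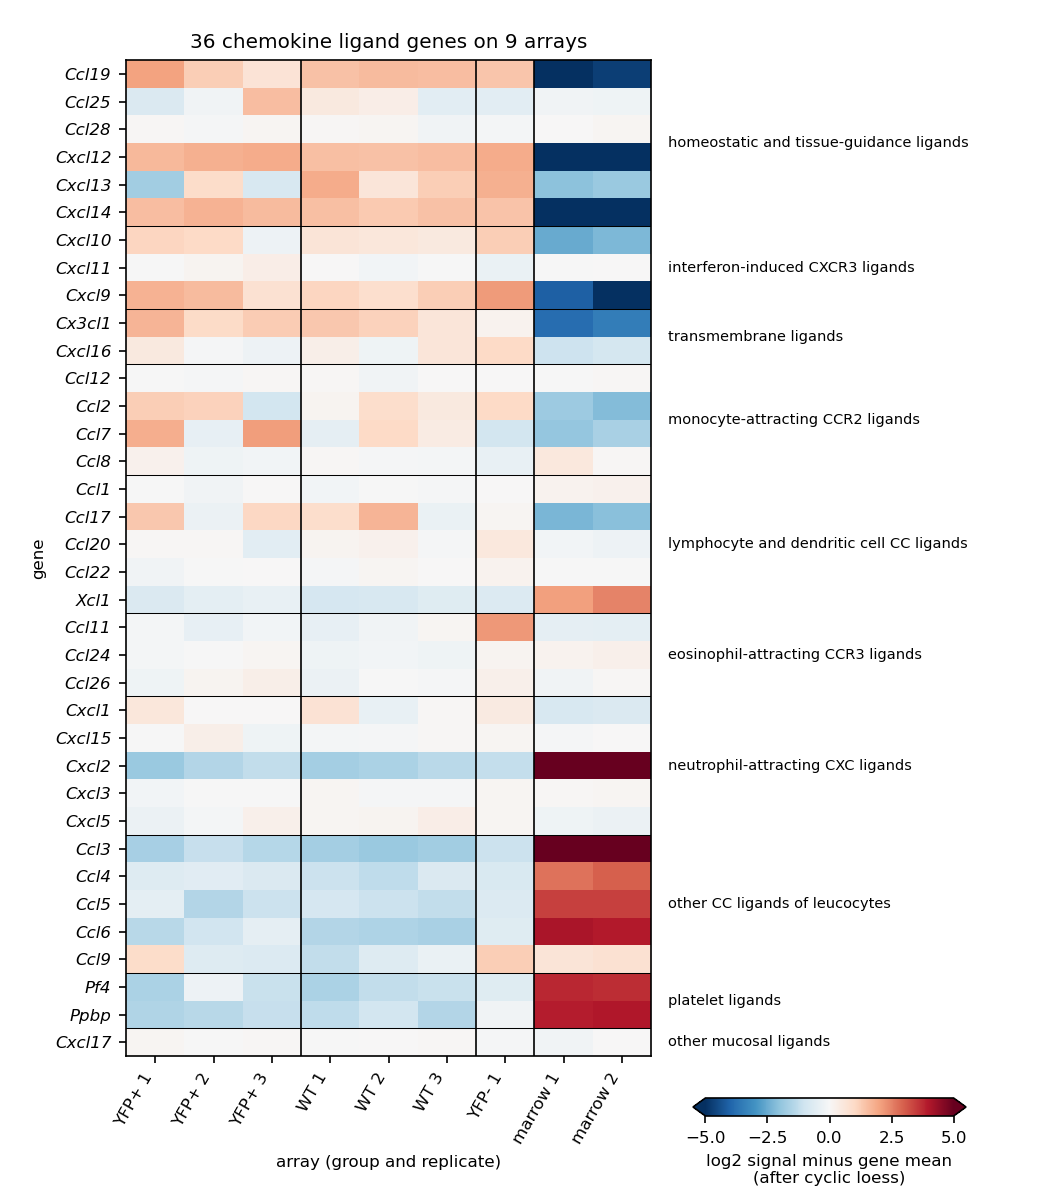
Log2 signal of the 36 chemokine ligands (rows, grouped by role) on the 9 arrays (columns), after cyclic loess normalization and as the difference from each gene's mean over the arrays; vertical lines part the groups. Cxcl12, Cxcl14 and Ccl19 are at their lowest in both total marrow arrays, Cxcl2 and Ccl3 at their highest, and Ccl11 is highest in the YFP-negative array, at 6.41.

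The homeostatic ligands, which place cells in resting tissue, held the largest rises. Cxcl12, the ligand of Cxcr4, had values of 12.35, 12.37 and 12.28 in YFP+ cells and of 12.37, 12.47 and 12.32 in wild-type cells, against 5.51 and 5.35 in total marrow. The 6 sorted arrays lay within a narrow band, far above both marrow arrays. The change was 6.90 ± 0.11 (SE, log2) in YFP+ cells (limma, adjusted p = 5.19e-08) and 6.96 in wild-type cells. Cxcl14, an epithelial and stromal chemokine, read 11.34, 11.45 and 11.09 in YFP+ cells, 11.44, 11.38 and 11.32 in wild-type cells, and 4.79 and 5.20 in marrow. It too separated the sorted cells from marrow without overlap, with a change of 6.30 ± 0.16 in YFP+ cells (limma, adjusted p = 2.24e-07) and of 6.38 in wild-type cells.

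Ccl19, which guides Ccr7-bearing T cells and dendritic cells, was more variable among the YFP+ arrays. Its values were 11.03, 10.18 and 9.41 in YFP+ cells, 10.61, 10.87 and 10.63 in wild-type cells and 4.28 and 4.69 in marrow. All sorted arrays stood above both marrow arrays, and the YFP+ arrays spanned the wild-type values. The change was 5.72 ± 0.41 in YFP+ cells (limma, adjusted p = 2.99e-05) and 6.22 in wild-type cells. Ccl19 has near-identical copies in the mouse genome and 5 rows on the array. The other rows changed by 6.09 to 6.28 in YFP+ cells and by 6.44 to 6.70 in wild-type cells.

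Cxcl13, which draws B cells into follicles through Cxcr5, varied widely from array to array. Its values were 3.87, 6.55 and 4.72 in YFP+ cells, 7.55, 6.37 and 6.91 in wild-type cells and 3.67 and 3.84 in marrow. The 3 wild-type arrays stood well above marrow, while YFP+ replicate 1 was level with it. The change of 3.18 ± 0.71 in wild-type cells passed the test (limma, adjusted p = 0.0138). Without total marrow replicate 1 or 2 the adjusted p was 0.0949 or 0.0747. The remaining homeostatic ligands, Ccl25 and Ccl28, were called in no comparison, and Ccl25 was highest in YFP+ replicate 3, at 6.19.

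The promoters of Cxcl12, Cxcl14 and Ccl19, 3 ligands far above marrow, are shown with those of Cxcl10, an interferon-induced ligand that also rose, and Cxcl2, a leucocyte ligand that fell. Each is the RefSeq sequence of assembly GRCm38.p6 from 250 bases before to 50 bases after the gene's start, read along the gene: chr6:117168285-117168584 on the plus strand for Cxcl12, chr13:56296502-56296801 on the minus strand for Cxcl14, chr4:42756316-42756615 on the minus strand for Ccl19, chr5:92348840-92349139 on the minus strand for Cxcl10 and chr5:90903649-90903948 on the plus strand for Cxcl2. Capitals mark matches to the motifs searched, and none of the promoters shown holds TATAAA.
Cxcl12: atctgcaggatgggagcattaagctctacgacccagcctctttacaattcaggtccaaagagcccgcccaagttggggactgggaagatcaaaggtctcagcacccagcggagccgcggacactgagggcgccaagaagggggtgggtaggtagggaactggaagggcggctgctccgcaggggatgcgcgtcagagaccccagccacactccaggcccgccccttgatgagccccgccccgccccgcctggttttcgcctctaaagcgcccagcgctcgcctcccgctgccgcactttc
Cxcl14: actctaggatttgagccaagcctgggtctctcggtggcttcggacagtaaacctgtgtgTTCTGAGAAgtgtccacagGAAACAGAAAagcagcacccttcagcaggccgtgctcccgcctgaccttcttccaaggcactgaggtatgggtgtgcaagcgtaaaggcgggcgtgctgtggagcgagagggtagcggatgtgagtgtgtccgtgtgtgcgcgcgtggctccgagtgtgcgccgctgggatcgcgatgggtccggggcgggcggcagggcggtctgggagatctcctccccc
Ccl19: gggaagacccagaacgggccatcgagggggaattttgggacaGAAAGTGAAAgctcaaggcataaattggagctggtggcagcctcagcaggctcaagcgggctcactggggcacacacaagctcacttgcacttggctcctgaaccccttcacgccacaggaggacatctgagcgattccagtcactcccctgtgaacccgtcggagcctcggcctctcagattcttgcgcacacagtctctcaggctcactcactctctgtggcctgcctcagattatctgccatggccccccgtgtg
Cxcl10: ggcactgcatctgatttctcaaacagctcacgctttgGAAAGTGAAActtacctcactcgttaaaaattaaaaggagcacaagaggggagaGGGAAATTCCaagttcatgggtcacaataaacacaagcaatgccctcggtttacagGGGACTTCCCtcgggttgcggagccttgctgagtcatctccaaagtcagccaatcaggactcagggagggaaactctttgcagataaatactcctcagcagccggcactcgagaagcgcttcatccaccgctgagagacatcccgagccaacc
Cxcl2: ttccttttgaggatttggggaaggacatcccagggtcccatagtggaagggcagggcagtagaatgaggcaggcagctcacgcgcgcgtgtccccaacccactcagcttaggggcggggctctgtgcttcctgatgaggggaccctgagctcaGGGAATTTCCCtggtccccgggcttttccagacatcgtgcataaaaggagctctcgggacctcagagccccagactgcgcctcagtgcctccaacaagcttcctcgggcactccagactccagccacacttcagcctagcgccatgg

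Of the 36 ligands, 25 had a promoter in the RefSeq table of 32851 promoters of this length, and both strands were searched. The interferon-stimulated response core (GAAA, any 2 bases, GAAA) lay in 3 of the 25 (Ccl19, Cxcl10 and Cxcl14), against 3.44% of all promoters. The NF-kappaB consensus lay in 6 of the 25 (Ccl20, Ccl9, Cxcl1, Cxcl10, Cxcl2 and Cxcl3), against 4.51% of all promoters. In Cxcl10 its matches begin 159 and 103 bases before the start, and the response core begins 213 bases before it. In Cxcl2 a match on each strand covers the same site, so the capitals there are 1 run. The gamma-activated site TTCNNNGAA lay in 2 of the 25 (Ccl17 and Cxcl14), against 8.30% of all promoters, and TATAAA in 10 of the 25, against 13.6%. The Cxcl12 window holds none of these letters. A match describes the letters only, and no binding was measured.

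Of the interferon-induced ligands of Cxcr3, a receptor of activated T cells and NK cells, Cxcl9 and Cxcl10 rose in all 3 sorted groups and Cxcl11 was not called. Cxcl9 read 11.25, 11 and 9.99 in YFP+ cells, 10.71, 10.63 and 10.82 in wild-type cells, and 5.94 and 4.72 in marrow. The change was 5.41 ± 0.44 in YFP+ cells (limma, adjusted p = 6e-05) and 5.39 in wild-type cells. Cxcl10 read 9.10, 8.94 and 7.45 in YFP+ cells, 8.77, 8.84 and 8.60 in wild-type cells, and 5.88 and 6.02 in marrow. YFP+ replicate 3 was the lowest sorted array for both genes and still stood above marrow. The Cxcl10 change was 2.55 ± 0.44 in YFP+ cells (limma, adjusted p = 0.00394) and 2.78 in wild-type cells.

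Both ligands that are made as membrane proteins and shed by proteases rose. Cx3cl1 (fractalkine), which holds Cx3cr1-bearing monocytes, read 9.43, 8.60 and 8.72 in YFP+ cells, 9.17, 9.11 and 8.45 in wild-type cells, and 4.28 and 4.52 in marrow. The sorted arrays were all above marrow, by 4.52 ± 0.31 in YFP+ cells (limma, adjusted p = 2.11e-05) and by 4.51 in wild-type cells. Cxcl16, the ligand of Cxcr6, read 5.35, 4.84 and 4.64 in YFP+ cells, 5.23, 4.72 and 5.46 in wild-type cells, and 3.86 and 4.01 in marrow. Its groups also did not overlap, but the rise was small, at 1.01 ± 0.27 in YFP+ cells (limma, adjusted p = 0.0255) and 1.20 in wild-type cells. Without total marrow replicate 1 the adjusted p for Cxcl16 was 0.152 in YFP+ cells and 0.103 in wild-type cells, and without replicate 2 it was 0.0945 and 0.0658. The marrow means of Cx3cl1 and Cxcl16 lay below 4.43, the median of all values. Where only the lower group stands below that median, a change is read as a lower bound, and the median is a stated cut, not a detection limit.

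The Ccr2 ligands, which call monocytes out of the marrow, varied among the sorted arrays. Ccl2 read 9.33, 9.15 and 6.89 in YFP+ cells, 8.33, 9.22 and 8.69 in wild-type cells, and 6.65 and 6.20 in marrow. YFP+ replicate 3 came close to marrow, and the other sorted arrays were well above it. The difference was 2.03 ± 0.69 in YFP+ cells, which was not called (limma, adjusted p = 0.063). In wild-type cells the change of 2.32 ± 0.69 was called (limma, adjusted p = 0.0461), but leaving out any 1 of the 3 wild-type or 2 marrow arrays gave adjusted p-values of 0.0733, 0.126 and 0.0998 for wild-type replicates 1, 2 and 3, and of 0.149 and 0.229 for marrow replicates 1 and 2. Ccl7 read 7.95, 5.70 and 8.05 in YFP+ cells, 5.77, 7.33 and 6.64 in wild-type cells, and 4.40 and 4.62 in marrow. It was above marrow on every sorted array of both groups, with its 2 highest values in YFP+ cells.

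The Ccl7 change was 2.72 ± 0.73 in YFP+ cells (limma, adjusted p = 0.0271), and the wild-type difference of 2.07 was not called (limma, adjusted p = 0.0861). Without YFP+ replicate 1 or 3 the YFP+ adjusted p was 0.063 or 0.0677, and without marrow replicate 1 or 2 it was 0.147 or 0.109. Ccl12 and Ccl8 were called in no comparison. Ccl2, Ccl7, Ccl11, Ccl12, Ccl8 and Ccl1 are neighbours in a single chromosomal cluster, of which Ccl1, Ccl12 and Ccl8 were never called. Ccl17, a ligand of Ccr4 on T cells, read 7.24, 5.58 and 6.78 in YFP+ cells, 6.82, 7.75 and 5.61 in wild-type cells, and 3.74 and 3.87 in marrow. Every sorted array of both groups stood above marrow, with a wide spread, and the changes were 2.72 ± 0.65 (limma, adjusted p = 0.0169) and 2.92 (limma, adjusted p = 0.0139). Without marrow replicate 1 these adjusted p-values were 0.105 and 0.0942, and without replicate 2 they were 0.0825 and 0.0764.

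**Figure D2:**
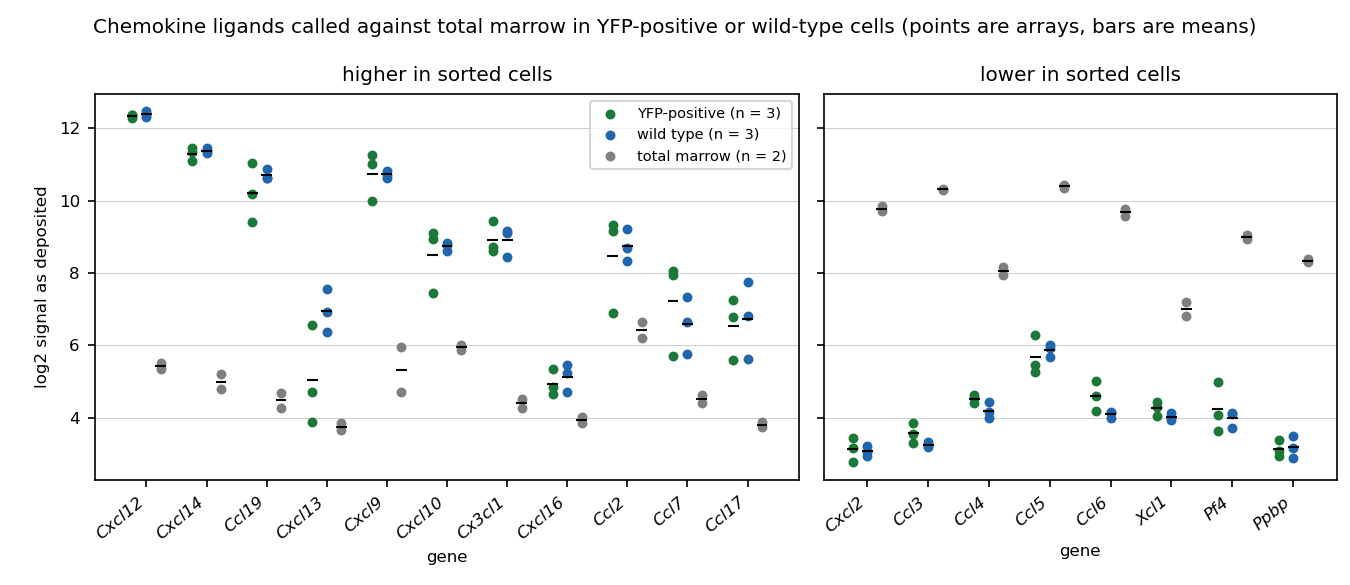
Log2 signal (vertical axis, as deposited) of the ligands called against total marrow in YFP+ or wild-type cells; each point is an array, each colour a group and each bar a group mean. Cxcl12 lies between 12.28 and 12.47 in the YFP+ and wild-type arrays and at 5.35 and 5.51 in marrow, while Cxcl13 and Ccl7 spread widely within their groups.

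The ligands that fell came from several role groups. Of the 5 CC ligands grouped here as products of leucocytes (Ccl3, Ccl4, Ccl5, Ccl6 and Ccl9), 4 fell in each sorted group. Ccl3 read 3.31, 3.85 and 3.56 in YFP+ cells, 3.33, 3.20 and 3.24 in wild-type cells, and 10.30 and 10.31 in marrow. All sorted arrays were below the median of all values and far below marrow, with a change of -6.73 ± 0.16 in YFP+ cells (limma, adjusted p = 1.81e-07) and of -7.05 in wild-type cells. The changes in YFP+ and wild-type cells were -5.08 and -5.58 for Ccl6, -4.73 and -4.53 for Ccl5, and -3.54 and -3.87 for Ccl4. Ccl9, their neighbour in the genome, was called in no comparison. It read 8.25, 6.60 and 6.38 in YFP+ cells, 6.17, 6.88 and 7.11 in wild-type cells and 8.25 and 8.29 in marrow. YFP+ replicate 1 was level with marrow for Ccl9, and the other YFP+ and wild-type arrays were below it. The differences were -1.19 in YFP+ cells (limma, adjusted p = 0.144) and -1.55 in wild-type cells (limma, adjusted p = 0.0833).

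Cxcl2, which attracts neutrophils through Cxcr2, read 2.77, 3.17 and 3.44 in YFP+ cells, 2.95, 3.05 and 3.22 in wild-type cells, and 9.84 and 9.70 in marrow. Its change was -6.64 ± 0.20 in YFP+ cells (limma, adjusted p = 3.55e-07) and -6.69 in wild-type cells. All YFP+ and wild-type values of Cxcl2 lay below 4.43, so differences among them are not resolved. The summed neutrophil markers of the sorted arrays were highest in YFP+ replicate 1, at 12.05, and their part in the Cxcl2 values was not tested. The other neutrophil-attracting ligands, Cxcl1, Cxcl15, Cxcl3 and Cxcl5, were called in no comparison. Cxcl1 read 6.54, 5.99 and 5.83 in YFP+ cells and 6.76, 5.78 and 6.08 in wild-type cells, against 5.34 and 5.34 in marrow. Every sorted array of these groups was above marrow for Cxcl1, yet the YFP+ difference of 0.78 was not called (limma, adjusted p = 0.102).

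The platelet ligands Ppbp and Pf4 fell by 5.21 and 4.77 on the log2 scale in YFP+ cells and by 5.16 and 5.02 in wild-type cells. Pf4 read 9.05 and 8.95 in marrow and 3.63 to 4.99 in the 6 YFP+ and wild-type arrays, without overlap. Of 4 measured megakaryocyte markers, 3 were lower in each of these groups, and their summed level was 6.42 to 6.87 in YFP+ cells, 6.22 to 6.43 in wild-type cells and 7.25 to 7.38 in marrow. Xcl1, made by NK and T cells, read 6.80 and 7.20 in marrow and fell by 2.74 and 2.98. The summed T and NK markers read 6.19 to 6.46 in YFP+ cells, 6.07 to 6.17 in wild-type cells and 10.27 to 10.43 in marrow, and the summed monocyte and macrophage markers read 7.68 to 9.08, 7.27 to 7.73 and 12.58 to 12.85. The part of these cell types in the falls was not tested.

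**Figure D3:**
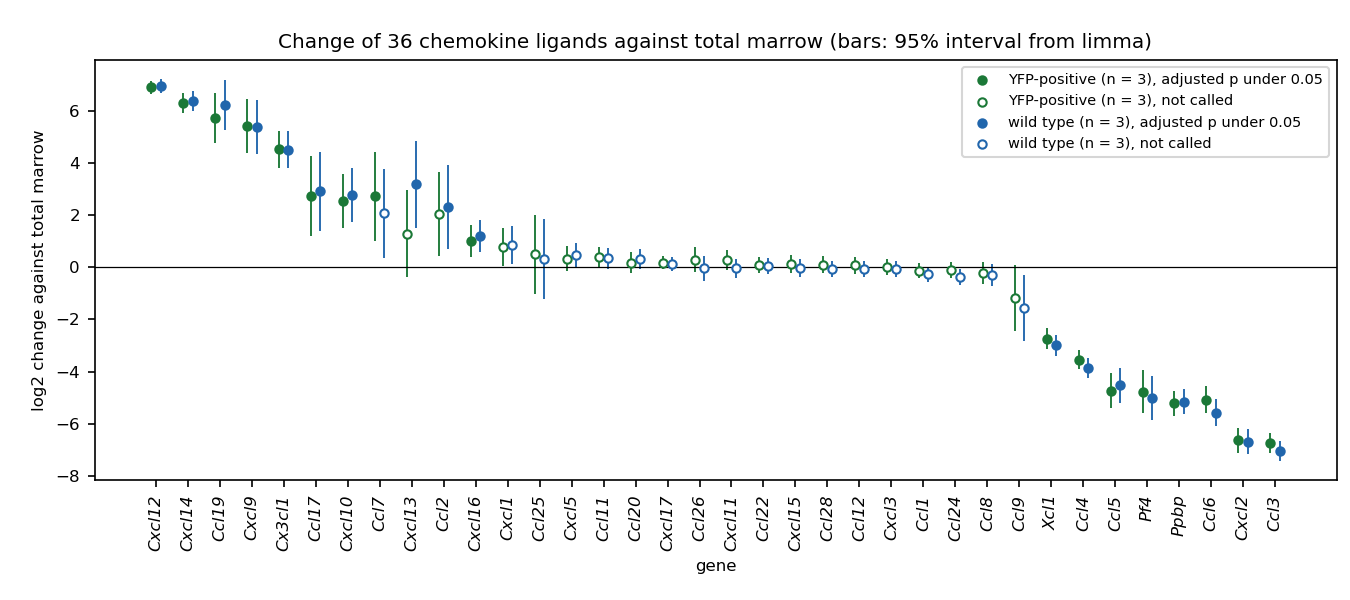
Log2 change against total marrow (vertical axis, with limma's 95% confidence interval) of the 36 ligands (horizontal axis) in YFP+ and wild-type cells; filled points were called. Cxcl12 rose by 6.90 and 6.96 in YFP+ and wild-type cells, and Ccl3 changed by -6.73 and -7.05.

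No chemokine ligand was called between YFP+ and wild-type gate cells, a comparison of marked cells with the whole gate. Of 36 ligands 0 were called, and of all rows 0% (limma). At an unadjusted p under 0.05 there were 3 ligands, against 14.9% of all rows. The 95% confidence interval lay within 1 log2 unit of no change for 27 of the 36. For 18 of the 36 both group means lay below 4.43, so the size of their differences is not resolved. Cxcl13 had the lowest unadjusted p, with a difference of -1.89 ± 0.64 (95% confidence interval -3.38 to -0.41; limma, adjusted p = 0.290). The 2 groups overlap, since YFP+ replicate 2 at 6.55 exceeds wild-type replicate 2 at 6.37. This interval does not exclude a sizeable difference. Next by unadjusted p were Ccl6, Ccl24, Ccl4 and Cxcl11, higher in YFP+ cells by 0.50, 0.29, 0.33 and 0.32. None of them was called (limma, adjusted p = 0.321, 0.334, 0.341 and 0.346).

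The YFP-negative cells differed from both other sorted groups in Ccl11 (eotaxin), which attracts eosinophils through Ccr3. After loess, Ccl11 read 6.41 in the YFP-negative array, 4.14, 3.82 and 4.09 in YFP+ cells, 3.82, 4.07 and 4.33 in wild-type cells, and 3.78 and 3.74 in marrow. The YFP-negative array alone was above the median of all loess values, 4.53. The YFP+ and wild-type values overlapped, and both marrow values were just below them. The change was 2.40 ± 0.22 against YFP+ cells (95% confidence interval 1.89 to 2.90; limma, adjusted p = 0.00834), 2.34 ± 0.22 against wild-type cells (limma, adjusted p = 0.00966) and 2.66 ± 0.23 against marrow (limma, adjusted p = 0.00014). As deposited, the YFP-negative value was 5.41 and those of the other 8 arrays were 3.69 to 4.26, so the order is the same without rescaling. Because the group holds 1 array, limma took its spread from the other groups, and its batch and its group cannot be told apart.

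In the comparison with YFP+ cells 2 of 36 ligands were higher and 0 lower, where 2.62% of all rows were higher and 1.36% lower, 3.98% in all. Ppbp was the other call, at 4.23 against 2.91, 3.03 and 3.26 after loess, a change of 1.17 ± 0.23 (limma, adjusted p = 0.0409). Both groups lie below 4.53, so its size is not resolved, and the difference was 0.04 on the deposited values. None of the 4 megakaryocyte markers was called in that comparison. In the comparison with wild-type cells 1 ligand was higher and 0 lower, against 3% and 1.57% of all rows, 4.56% in all. At an unadjusted p under 0.05, limma gave 7 and 8 ligands in these comparisons, against 21.9% and 22.3% of all rows.

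Several uncalled differences of the YFP-negative array were wide on the loess values. Cx3cl1 differed by -1.13 from YFP+ cells (limma, adjusted p = 0.128), Ccl7 by -2.06 (limma, adjusted p = 0.263) and Cxcl13 by 2.32 (limma, adjusted p = 0.197). Ccl9 was 1.97 above wild-type cells (limma, adjusted p = 0.129). Cxcl12 read 12.43 after loess, 0.34 above wild-type cells and not called (limma, adjusted p = 0.198). As deposited it read 11.88, below the wild-type mean of 12.39, so the direction depends on the scaling. Against marrow, also on loess values, Cxcl12 rose by 7.68 ± 0.14 in these cells (limma, adjusted p = 6.37e-07). Over the alternatives that rise ran from 6.46 to 7.72, and the YFP+ rise from 6.83 to 7.58. The YFP+ and wild-type changes given above are on deposited values, so sizes are not compared. In the YFP-negative array Cxcl9 rose by 6.76, Cxcl14 by 6.71, Ccl19 by 6.34, Cx3cl1 by 3.79, Cxcl10 by 3.61 and Cxcl16 by 1.94. On the deposited values the Cxcl16 difference was 0.72 and was not called (limma, adjusted p = 0.104). Cxcl13 rose by 3.75 (limma, adjusted p = 0.0271) and Ccl2 by 2.98 (limma, adjusted p = 0.0355). Without marrow replicate 1 or 2 the adjusted p was 0.102 or 0.0822 for Cxcl13 and 0.101 or 0.131 for Ccl2. On deposited values it was 0.0584 for Cxcl13 and 0.151 for Ccl2. For Ccl2 it was also 0.0531 after quantile normalization, 0.0543 at a common median, and 0.0522, 0.0536 and 0.0568 without wild-type replicates 1, 2 and 3.

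**Figure D4:**
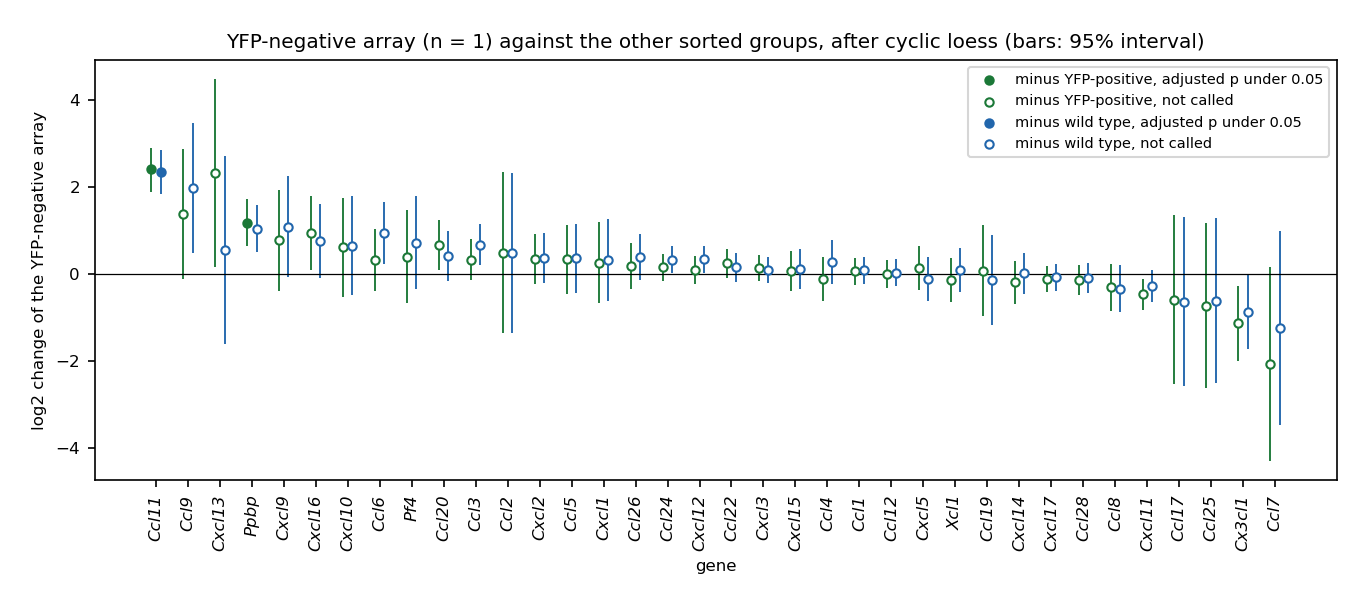
Log2 change of the YFP-negative array against YFP+ and against wild-type cells (vertical axis, loess values, with limma's 95% confidence interval) for the 36 ligands (horizontal axis); filled points were called. Ccl11 stands at 2.40 and 2.34, and Ppbp at 1.17 against YFP+ cells.

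None of the signalling chemokine receptors rose in the sorted cells. Of 17 measured chemokine receptors 0 were higher and 10 lower in YFP+ cells, and the same numbers were found in wild-type cells. Cxcr2, the receptor of Cxcl2, fell by 6.52 and 6.40 on the log2 scale, Ccr2, the receptor of Ccl2, by 4.70 and 4.93, and Cxcr4, the receptor of Cxcl12, by 4.11 and 4.17. In the YFP-negative array 9 of the 17 were lower than in marrow. Of the 5 atypical receptors, Ackr4, which clears Ccl19 and other Ccr7 ligands, rose. Ackr4 read 9.05, 8.74 and 8.87 in YFP+ cells, 8.96, 9.11 and 9 in wild-type cells, and 5.34 and 4.23 in marrow. It was above marrow on every sorted array of both groups, by 4.10 ± 0.29 in YFP+ cells and by 4.24 in wild-type cells. Ackr1 and Ccrl2 were lower in both, by -0.48 and -2.04 in YFP+ cells. Ackr1 lay below 4.43 in YFP+, wild-type and marrow arrays alike, so the size of its difference is not resolved.

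Ackr3, which clears Cxcl12, reached its highest level on the YFP-negative array. After loess it read 5.34 there, against 3.06, 3.82 and 3.55 in YFP+ cells, 3.22, 3.61 and 3.12 in wild-type cells, and 3.23 and 3.28 in marrow. Like Ccl11, it exceeded 4.53 on that array alone. The change was 1.87 ± 0.30 against YFP+ cells (limma, adjusted p = 0.0256) and 2.03 ± 0.30 against wild-type cells (limma, adjusted p = 0.0203). Between YFP-negative and YFP+ cells, 0 of 7 endothelial, 0 of 5 eosinophil and basophil and 0 of 6 reticular stroma markers were called. In that comparison 1 of 8 neutrophil markers was lower, Mpo by -3.33, and 1 of 10 monocyte and macrophage markers was higher, Ly86 by 0.66. Ly86 lay below 4.53 in both groups, so the size of its difference is not resolved. The part of these marker genes in the Ccl11 and Ackr3 results was not tested.

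**Figure D5:**
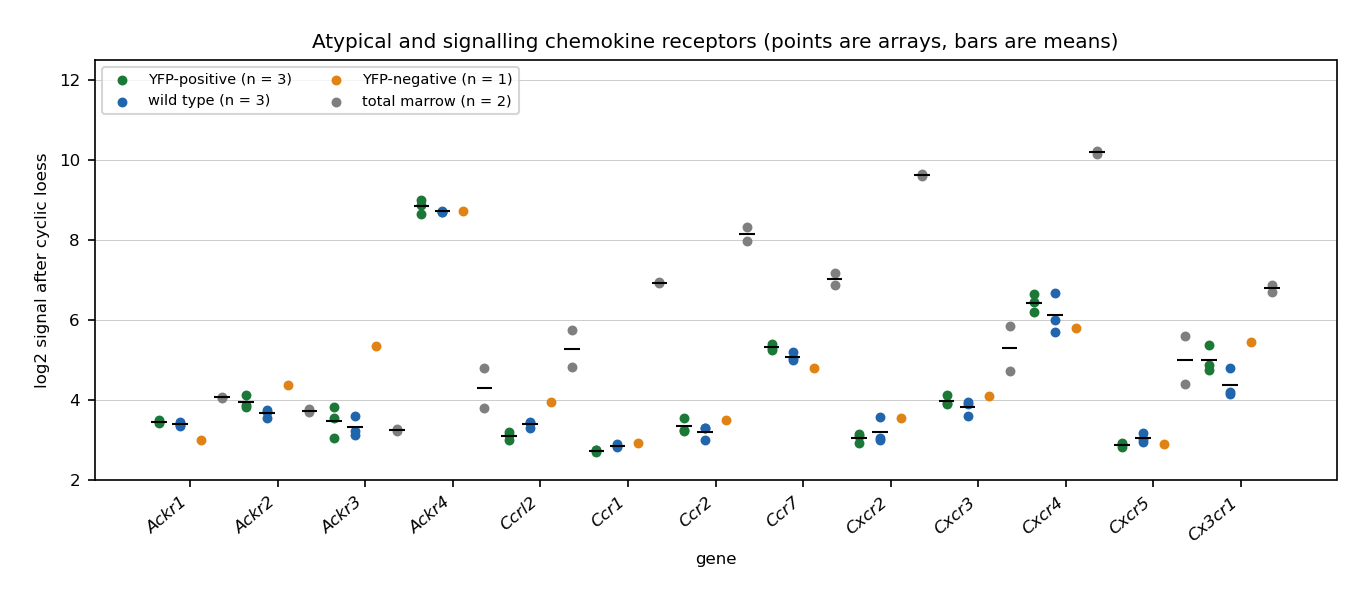
Log2 signal (vertical axis, after cyclic loess normalization) of chemokine receptors and atypical receptors, each point an array, each colour a group and each bar a group mean. Ackr3 reads 5.34 in the YFP-negative array and at most 3.82 in the others.

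Other genes of the pathway moved in both directions. Of 6 proteases that trim or shed chemokines, Mmp2, a matrix gelatinase, rose by 3.22 in YFP+ cells and by 3.88 in wild-type cells, and Dpp4, Ctsg and Mmp9 fell in both. Mmp9 varied widely among the YFP+ arrays, at 3.97, 7.03 and 8.46, against 10.34 and 10.37 in marrow. Adam10 and Adam17, which release Cx3cl1 and Cxcl16 from the membrane, differed by -0.37 and 0.02 in YFP+ cells and were not called. Of 12 measured genes of NF-kappaB and inflammatory signalling, 3 rose and 4 fell in YFP+ cells. The risers were Ltbr, the lymphotoxin beta receptor, at 1.60, Tlr4, the endotoxin receptor, at 1.46, and Tnfrsf1a, a TNF receptor, at 0.95. Of the 4 that fell, Rel, an NF-kappaB subunit, was lower by 2.42. The means of Tlr2 and Tnfaip3 were 6.88 and 6.09 in YFP+ cells, against 8.56 and 7.13 in marrow. All 3 transcription factors of Cxcl12-abundant reticular cells were higher, with changes in YFP+ cells of 6.32 for Foxc1, 6.45 for Ebf3 and 1.20 for Ebf1.

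Of the 36 ligands, 16 were called in no comparison: Ccl1, Ccl12, Ccl20, Ccl22, Ccl24, Ccl25, Ccl26, Ccl28, Ccl8, Ccl9, Cxcl1, Cxcl11, Cxcl15, Cxcl17, Cxcl3 and Cxcl5. Their values on the 8 arrays other than the YFP-negative one ran from 2.44 to 8.29. On those arrays 13 ligands stayed below 4.43 throughout. For such genes the size of a difference is not resolved, and a ligand that was not called may still differ.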

How the data were processed

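RNA of sorted marrow stromal cells and total marrow was amplified (NuGEN Ovation Pico WTA System V2, per the labels) and measured on 9 Affymetrix Mouse Gene ST 1.0 arrays. The authors deposited 1 log2 signal per array for each transcript cluster. The submitters' processing notes name Affymetrix Expression Console 1.3.1 and RMA, which corrects background, normalizes by quantiles and summarises probes. Whether all arrays were summarised together is not given in the sources used here.

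Of 35556 rows, the 21789 that pair with 1 gene symbol (19938 genes) were tested without an intensity filter. Rows with several genes (1621) or none (12146) were left out. A limma fit (limma 3.58.1, R 4.3.3; lmFit on group means, eBayes) held the 9 arrays, with 5 residual degrees of freedom. Tests were two-sided, and the Benjamini-Hochberg adjustment ran over all tested rows, with a call at an adjusted p under 0.05. Changes are log2 differences ± SE. Comparisons with the YFP-negative array used cyclic loess of the 9 arrays, others the deposited values. The number of arrays limits precision. Labels do not say that replicates are separate animals, so p-values measure the spread between samples, which may be technical. Same-numbered samples did not deviate together (correlations -0.08 to 0.06), so numbers were not used as pairs. Alternatives were values as deposited, quantile normalization, a common median, a filter on dim rows, other moderation, array weights, a replicate block and leaving out each array. The fit was tested on simulated data.

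Genes were named by rule: ligands called in a comparison, up to 5 with the lowest p otherwise, the markers Cxcl12, Cxcl14, Ccl19 and Ccl11 in every group, and pathway genes from lists. Other genes were named after their values were seen. The members, lists and scaling were chosen with earlier results of these data known. Promoters and gene order came from RefSeq tables (GRCm38.p6).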

Additional observations from a re-analysis of the deposited data

Results flagged for a closer look

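Rows that pair with several genes lie outside the comparisons above, and 3 sets of them, which hold other chemokine ligands, stood above total marrow on every array of YFP+ or of wild-type cells and overlapped it in the other of these groups. None was tested. The values shared by 4 rows of the Ccl21 genes, ligands of Ccr7, were 4.84, 4.69 and 5.13 in YFP+ cells and 3.91 and 4.31 in marrow, a mean difference of 0.77. In wild-type cells they were 4.42, 4.64 and 4.16. The values shared by 2 rows of the Ccl27 genes were 6.38, 5.87 and 5.75 in wild-type cells and 5.19 and 5.58 in marrow, a difference of 0.62. In YFP+ cells they were 5.94, 5.43 and 5.22. Another row of the Ccl27 genes read 6.60, 6.37 and 6.45 in wild-type cells and 5.80 and 6.10 in marrow, a difference of 0.53, while YFP+ cells read 6.41, 5.77 and 5.70. Near-identical genes share these probes, so the values belong to no single gene. Of the 36 ligands tested above, 15 in YFP+ cells and 16 in wild-type cells also stood above marrow on every array. Only 9 and 10 ligands were called higher in these comparisons. Separation of 3 arrays from 2 therefore occurred among these ligands without a call, and does not by itself mark a difference. The share of all rows that separate in this way is not given here.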

How the results depend on the processing

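The 56 called changes of named ligands were recomputed in 886 fits under the alternatives. In 842 they kept direction and call, in 44 the call was lost, and in 0 the direction reversed. Against marrow, the calls of Cxcl12, Cxcl14, Ccl19, Cxcl9, Cxcl10, Cx3cl1, Cxcl2, Ccl3, Ccl4, Ccl5, Ccl6, Xcl1, Pf4 and Ppbp held wherever the row was fitted. Leaving out 1 array gave 6 to 10 higher and 8 to 9 lower ligands for YFP+, 6 to 11 and 8 to 9 for wild type, and 8 to 11 higher for YFP-negative. On deposited values, which lie lower on the YFP-negative array, it had 17 lower ligands against marrow, 22 against YFP+ and 20 against wild type. Of all rows, 67.9%, 75.4% and 74.7% were called lower in these comparisons. Ligands higher than in YFP+ cells numbered 1 as deposited (0.464% of all rows), 1 after quantile normalization (4.46%) and 4 at a common median (8.59%). They numbered 0 after the filter on dim rows (2.16% of the rows kept) and 0 with the replicate block (0.0229% of all rows). With 1 YFP+ or wild-type array left out they numbered 1 to 2, where 1.32% to 3.52% of all rows were higher. The lower count was then 0 to 1, with 1 without YFP+ replicate 2, where 1.35% of all rows were lower. Ligands higher than in wild type numbered 5 at a common median (14.3% of all rows), 0 after the filter (2.19% of the rows kept) and 0 with the block (0.0275%). They numbered 2 with trend and robust moderation (2.8% of all rows) and 4 with array weights (5.93%). With 1 YFP+ or wild-type array left out they numbered 1 to 4, where 0.574% to 5.07% of all rows were higher. The filter removes the Ccl11 row. With the replicate block the Ccl11 change was 2.46 against YFP+ (limma, adjusted p = 0.0582) and 2.40 against wild type (limma, adjusted p = 0.0674), and over all alternatives it ran from 1.33 to 2.65 and from 1.37 to 2.59. With the block the adjusted p was 0.0899 for Ccl7 and 0.0615 for Cxcl16 in YFP+ cells, and 0.0632 for Cxcl13 in the YFP-negative array against marrow. The call of Ppbp against YFP+ was lost in 8 of 15 alternatives. The causes were not tested.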
